A study of Mus musculus with 36 samples.

Results

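Csf1 encodes colony stimulating factor 1 (also called M-CSF), and its mRNA was followed here across every substrate, medium and time of the series. It was 1 gene of the 49671 in the count table and 1 of the 17702 genes that passed the filter on low counts. Csf1 was chosen by its own read counts in these libraries, so its levels and differences are given as a description with their errors and without a test. The samples were 36 libraries of total RNA from 129m wt mouse embryonic stem cells (ES cells) in 11 groups, with 6 libraries of soft, 48 h, serum + PD03 and 3 of every other group. Cells were cultured on StemBond hydrogels, which are polyacrylamide gels that carry a cofactor to tether matrix protein covalently, in a soft or a stiff version, or on tissue culture plastic. All groups received serum. LIF, a cytokine that sustains ES cell self-renewal, and PD03, an inhibitor of the kinase MEK, were added singly, together or not at all at 48 h, on both hydrogels. The 24 h groups, soft and stiff, and the plastic group, at 48 h, were in serum + LIF only. All libraries came from 1 genotype, and the labels do not say whether the libraries of a group came from separate cultures, so every error and p-value measures the spread between libraries, which may be technical.

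CSF1 is the growth factor on which monocytes, macrophages and osteoclasts depend for survival and proliferation. It is made as a secreted and as a membrane-bound form, and the latter is released from the cell surface by the protease ADAM17. Its receptor CSF1R is a receptor tyrosine kinase that is also bound by a second ligand, interleukin 34 (IL-34). In the mouse, CSF1 from the uterus acts on trophoblast and macrophages during pregnancy.

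Csf1 (ENSMUSG00000014599) lies on the minus strand of mouse chromosome 3 at chr3:107741048-107760469 (GRCm38). The GENCODE M21 annotation gives it 7 transcripts, of which 6 are protein coding, with 5281 bases of exon in all. It overlaps 0 other annotated genes, so no antisense or nested gene shares its reads. The 250 bases before its start (chr3:107760470-107760719, minus strand, GRCm38.p6, from RefSeq) are shown because every substrate and medium effect below was read on this gene's mRNA. The capitals mark matches to the motifs searched on both strands.

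Csf1 promoter: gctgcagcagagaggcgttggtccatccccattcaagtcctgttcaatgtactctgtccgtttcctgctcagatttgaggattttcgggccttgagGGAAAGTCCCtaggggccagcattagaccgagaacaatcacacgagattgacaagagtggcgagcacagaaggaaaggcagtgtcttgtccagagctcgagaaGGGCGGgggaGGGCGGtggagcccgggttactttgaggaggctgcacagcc

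The window was 56.4% G and C, against a median of 52.4% over 32851 promoter windows of the same length. The SP1 motif (GGGCGG), bound by a general activator of GC-rich promoters, matched at 2 places, 51 and 41 bases before the start, and was present in 32.7% of all windows. The NF-kB motif matched at 1 place, on the opposite strand, from 154 to 145 bases before the start, and was present in 7.25% of all windows. The AP-1 motif (TGANTCA), the TEAD motif (GGAATG) and the CArG box, which is bound by SRF, had 0 matches in this window and were present in 6.75%, 12.6% and 1.47% of all windows. The motifs do not overlap one another in this window. A match only describes the letters, and no match says only that these letters are not in these 250 bases.

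Library totals ranged from 10405696 to 26635239 counts, and Csf1 had between 66 and 755 counts per library. Levels are in CPM, the counts scaled to a common library total after TMM normalisation, and mean values are followed by the SD over the libraries of a group. Mitochondrial transcripts took 2.27 to 2.92% of the counts on plastic and 0.574 to 1.75% on the hydrogels. The ES cell markers Pou5f1, Sox2, Nanog, Zfp42, Esrrb, Klf4, Tfcp2l1 and Dppa5a were all expressed, with summed group means of 2516 to 4737 CPM.

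Csf1 was detected in every library, and its group means spanned 5.33 to 32.5 CPM. On stiff gels at 24 h in serum + LIF, the 3 libraries held 28.6, 36.1 and 32.7 CPM (32.5 ± 3.74). On soft gels at the same time and in the same medium they held 14.1, 12.3 and 11.4 CPM (12.6 ± 1.39). Every soft library thus lay below every stiff library at 24 h.

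At 48 h in serum + LIF, stiff libraries held 10.7, 10.3 and 11.3 CPM (10.7 ± 0.486). The soft libraries of that medium held 7.15, 6.98 and 4.32 CPM (6.15 ± 1.59). Plastic libraries of that medium held 26.7, 24.6 and 29 CPM (26.8 ± 2.18). The 3 substrates did not overlap, with plastic highest, stiff between and soft lowest.

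In serum alone at 48 h, stiff libraries held 15.8, 13.2 and 17.1 CPM (15.4 ± 1.95) and soft libraries held 5.87, 4.56 and 5.56 CPM (5.33 ± 0.683), the lowest group of the series. With PD03 and no LIF, stiff libraries held 26.8, 23.9 and 23.3 CPM (24.7 ± 1.85), while the 6 soft libraries ranged from 9.66 to 13.7 CPM with a median of 11.7 (11.7 ± 1.47). With LIF and PD03, stiff libraries held 33.7, 29.6 and 25.8 CPM (29.7 ± 3.97) and soft libraries held 9.08, 9.37 and 9.92 CPM (9.45 ± 0.425). Soft and stiff libraries did not overlap in any of these media.

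**Figure D1:**
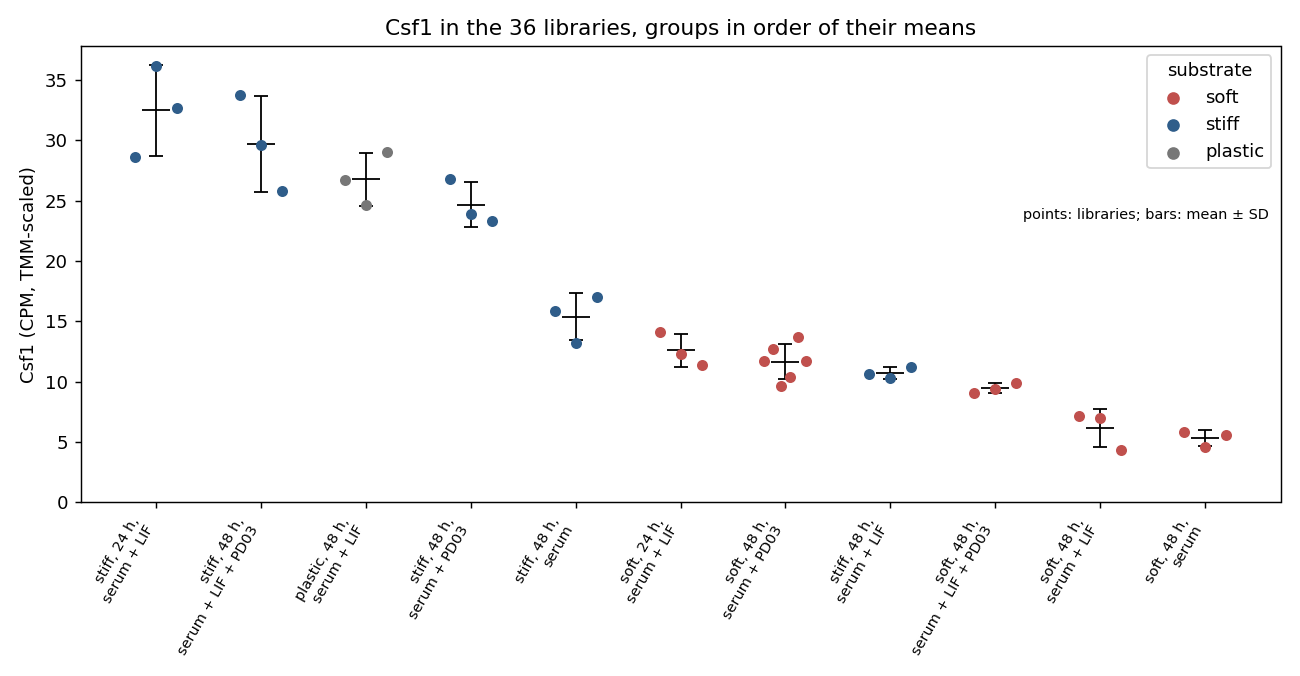
Csf1 in CPM (linear axis from 0) for each of the 36 libraries, with groups ordered by their means, points for libraries, and bars for the mean and SD of a group. The 4 groups at the left, 3 of them stiff and 1 plastic, lie between 23.3 and 36.1 CPM, and the 2 groups at the right, soft at 48 h without PD03, lie at or below 7.15 CPM.

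Ordered by their means, the groups ran from stiff at 24 h, through stiff with LIF and PD03, plastic, and stiff with PD03, to stiff in serum. Then came soft at 24 h, soft with PD03, stiff in serum + LIF at 48 h, soft with LIF and PD03, soft in serum + LIF and soft in serum. Neighbours in this order overlapped in their ranges, except at 3 steps. These were the step from stiff with PD03 (lowest 23.3 CPM) to stiff in serum (highest 17.1 CPM), the step from stiff in serum + LIF at 48 h (lowest 10.3 CPM) to soft with LIF and PD03 (highest 9.92 CPM), and the step from there (lowest 9.08 CPM) to soft in serum + LIF (highest 7.15 CPM). Thus stiff gels in serum + LIF at 48 h held no more Csf1 than soft gels at 24 h or soft gels with PD03. Per kilobase of exon, the group means ran from 1.01 to 6.15 CPM per kb.

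The spread between libraries was larger than counting error in some groups and smaller in others. On stiff gels at 24 h, the SD of 3.74 CPM stood against 1.24 CPM from counting alone. In soft, 48 h, serum + LIF, library 3 held 66 counts and 4.32 CPM (95% exact Poisson interval 3.34 to 5.49 CPM), below the intervals of library 1 (5.90 to 8.59) and library 2 (5.74 to 8.42). These intervals cover counting error only, and the group had the largest relative spread, with an SD of 25.9% of its mean.

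The first question of the design is what substrate stiffness does within 1 medium and time. Csf1 was lower on soft than on stiff gels in all 5 comparisons, at 38.8% of the stiff mean at 24 h in serum + LIF, 57.3% at 48 h in serum + LIF, 34.7% in serum, 47.3% with PD03 and 31.8% with LIF and PD03. In the fit over all genes the log2 difference, soft minus stiff, was -1.38 ± 0.12 (SE) at 24 h and -0.80 ± 0.15 at 48 h in serum + LIF. It was -1.53 ± 0.14 in serum, -1.09 ± 0.10 with PD03 and -1.65 ± 0.12 with LIF and PD03. At 24 h, 131 of the 17702 genes had a lower value than Csf1, and in serum + LIF at 48 h 705 genes did. The median difference of all genes lay between -0.0028 and 0.010 in the 5 comparisons.

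Of all genes tested, 2.52% were lower and 1.03% higher on soft gels at 24 h, by edgeR's quasi-likelihood test at an adjusted p under 0.05. At 48 h, 0.333% were lower and 0.446% higher in serum + LIF, and 2.77% lower and 2.08% higher in serum. With PD03 3.42% were lower and 2.13% higher, and with LIF and PD03 4.82% were lower and 2.80% higher. These shares are the background for the counts of listed genes below, and nothing is read from them for Csf1, whose values chose it. At an unadjusted p under 0.05, in either direction, the shares were 14.7% at 24 h, 10.9% in serum + LIF at 48 h, 15.7% in serum and 17.8% with PD03. By DESeq2, at an adjusted p under 0.05, they were 4.23%, 1.37%, 5.78% and 6.56% in the same order.

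Each sample's description began with 1 of 3 identifiers, whose meaning the labels do not give. The libraries of the 24 h comparison and of plastic shared 1 identifier, called the first here. At 48 h, stiff libraries had the second identifier, except for 1 of 3 in serum + LIF, and soft libraries the third, except for 2 of 6 with PD03, so that substrate and identifier mostly coincided. The count columns do not say which library is which, so the identifier was added as a term in each of the 45 possible assignments. With this term the lowest and highest differences at 48 h were -1.14 and -0.48 for serum + LIF and -1.84 and -1.25 for serum. They were -1.30 and -0.89 for PD03 and -1.96 and -1.37 for LIF and PD03. All lay below 0, but they are estimates given without an SE. The term rests only on the few libraries of the groups that held more than 1 identifier, so the ranges do not settle its part. Without soft library 3, the difference in serum + LIF at 48 h was -0.58.

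**Figure D2:**
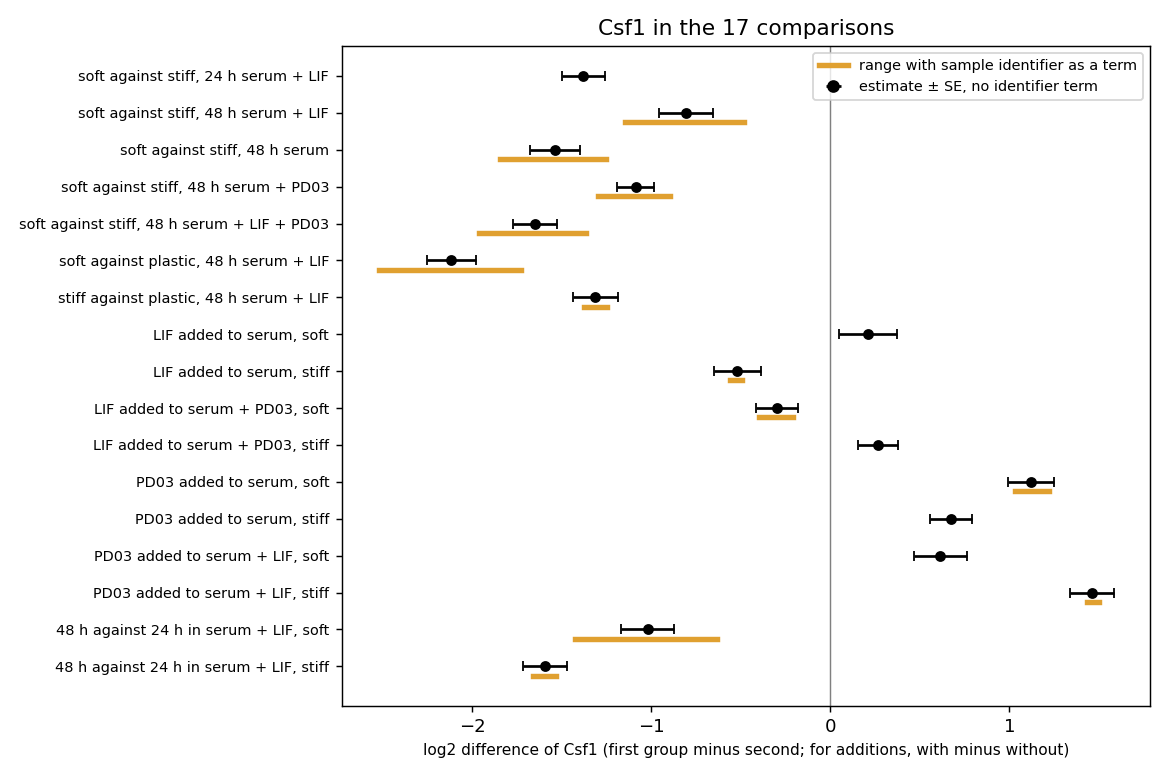
Log2 difference of Csf1 in the 17 comparisons, as points with SE (x axis, log2 scale, first group minus second, or with minus without an addition), and below a point, where it moves, the range over the 45 assignments with the identifier as a term. All 5 soft against stiff points and both plastic comparisons lie below 0. The range with the identifier term is wide for soft against plastic, from -2.52 to -1.73, and about as wide for 48 h against 24 h on soft gels.

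The stiffness difference of Csf1 itself varied with medium and time. Adding LIF in the absence of PD03 went with a difference that was smaller by 0.73 ± 0.21 on the log2 scale, and in its presence with a difference that was larger by 0.56 ± 0.16 (-0.56 as coded, with LIF minus without). Adding PD03 went with 0.45 ± 0.18 without LIF and -0.85 ± 0.20 with LIF. In serum + LIF the difference at 48 h was smaller than at 24 h by 0.57 ± 0.20. Serum + LIF at 48 h, which had the smallest difference, was part of 3 of these 5 contrasts. None of the 5 had the identifier as a term. Soft and stiff libraries shared 1 identifier at 24 h and mostly did not at 48 h. Time and identifier therefore cannot be told apart in the contrast of 48 h with 24 h. The mix of identifiers also differed between media, and its part in the other contrasts was not tested.

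The plastic group compares the hydrogels with the usual culture surface, at 48 h in serum + LIF. Csf1 on stiff gels was 40.1% of its level on plastic (log2 -1.31 ± 0.13) and on soft gels 22.97% (log2 -2.12 ± 0.14). The -1.31 between stiff gels and plastic was larger in size than the -0.80 ± 0.15 between soft and stiff gels in this medium. The gap between these values was not tested. The plastic libraries all had the first identifier, most of the stiff libraries the second and the soft libraries the third. With the identifier as a term the soft value ran from -2.52 to -1.73. The higher mitochondrial share on plastic went along with this comparison, and its part in the result was not tested. The background was 6.47% of genes lower and 5.29% higher on soft gels than on plastic, and 3.59% lower and 1.95% higher on stiff gels than on plastic.

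LIF went with small differences of Csf1, and their sign was not the same on soft and stiff gels. On stiff gels in serum, the level with LIF was 69.8% of that without (log2 -0.52 ± 0.13) and the libraries did not overlap. On soft gels in serum, the difference was 0.21 ± 0.16 with overlapping libraries. It was 0.42 without soft library 3 of serum + LIF and 0.09 without library 1. In the presence of PD03, LIF went with -0.30 ± 0.12 on soft and 0.27 ± 0.11 on stiff gels, and in both the libraries overlapped. Of all genes, LIF changed 1.41% on stiff gels and 0.0169% on soft gels in serum, and 0.514% and 0.107% in the presence of PD03. At an unadjusted p under 0.05 the shares were 11.5% on stiff and 7.60% on soft gels in serum and 8.08% on soft gels with PD03, and by DESeq2 2.18%, 0.203% and 0.237%.

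PD03 went with higher Csf1 in all 4 settings, and the libraries with and without it did not overlap in any. On soft gels the level was 2.19 times as high in serum (log2 1.12 ± 0.13) and 1.54 times as high in serum + LIF (0.62 ± 0.15). On stiff gels it was 1.60 times as high in serum (0.68 ± 0.12) and 2.77 times as high in serum + LIF (1.46 ± 0.12). Without soft library 3 of serum + LIF the second of these values was 0.40. PD03 changed a large part of the transcriptome. On soft gels 29% of genes rose and 28.5% fell in serum, and 27.8% rose and 26.6% fell in serum + LIF. On stiff gels 28.4% rose and 27.4% fell in serum, and 28.3% rose and 27.8% fell in serum + LIF.

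Csf1 was lower at 48 h than at 24 h in serum + LIF, at 48.8% of the earlier level on soft gels (log2 -1.02 ± 0.15) and 33.1% on stiff gels (log2 -1.59 ± 0.12). The libraries of the 2 times did not overlap on either gel. The 48 h value on soft gels ran from -1.42 to -0.63 with the identifier as a term, since its libraries had the third identifier and all 24 h libraries the first. On stiff gels most of the 48 h libraries had the second identifier, so time and identifier mostly coincided there too. Of all genes, 12.9% were higher and 11.4% lower at 48 h on soft gels, and 12.6% higher and 13% lower on stiff gels.

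The receptor and the second ligand were near the lower limit of detection. Csf1r, which encodes the only known signalling receptor for CSF1, had group means of 0.980 to 2.12 CPM and at most 57 counts in a library, or 0.170 to 0.367 CPM per kb. Il34 had group means of 0.256 to 1.58 CPM and at most 44 counts in a library, or 0.131 to 0.805 CPM per kb. On this scale, per length, the lowest group mean of Csf1, 1.01 CPM per kb, was above the highest of either gene.

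Neither gene passed the test between soft and stiff gels in any of the 5 comparisons. The values of Csf1r ranged from -0.36 to 0.41 and those of Il34 from -0.93 to 0.53 on the log2 scale, and at 24 h the SE was 0.31 for Csf1r and 0.51 for Il34. A difference of the size seen for Csf1 was therefore better resolved for Csf1r than for Il34. PD03 raised Il34 in all 4 settings, by 1.38 ± 0.42 on soft gels in serum (adjusted p = 0.00404), 1.88 ± 0.51 on stiff gels in serum, 2.55 ± 0.51 on soft gels in serum + LIF and 1.67 ± 0.45 on stiff gels in serum + LIF. Csf1r fell from 24 h to 48 h on soft gels, by -1.07 ± 0.34 (adjusted p = 0.0171).

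Other surface proteins that bind IL-34, the receptor phosphatase Ptprz1 and the syndecan Sdc1, differed in direction under PD03. Ptprz1 rose in all 4 settings, by 1.13 to 1.75 on the log2 scale, and Sdc1 fell in all 4, with values from -1.27 to -0.84. Between soft and stiff gels Ptprz1 did not pass the test, and Sdc1 was lower on soft gels in serum only (-0.34 ± 0.08, adjusted p = 0.0068).

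The genes that act on shedding of the membrane form are the protease Adam17, the related protease Adam10, the ADAM17 partners Rhbdf1, Rhbdf2 (iRhoms) and Frmd8, and the ADAM17 inhibitor Timp3. Adam17 had group means of 62.0 to 78.5 CPM, did not pass the test between soft and stiff gels, and had values within -0.06 to 0.06 on the log2 scale. Adam10, Rhbdf2 and Frmd8 did not pass it either. Rhbdf1 was lower on soft gels at 24 h (28.2 ± 2.17 against 21.7 ± 1.0 CPM, -0.37 ± 0.10, adjusted p = 0.0185), in serum (-0.34 ± 0.10, adjusted p = 0.0378) and with LIF and PD03 (-0.75 ± 0.11, adjusted p = 1.5e-06). Timp3 was lower on soft gels with PD03 (30.97 ± 3.48 against 22.3 ± 1.52 CPM, -0.47 ± 0.09, adjusted p = 0.000316) and with LIF and PD03 (-0.80 ± 0.10, adjusted p = 1.38e-07).

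Together, of the 10 genes of receptor, second ligand, binding and shedding, all tested, the number lower on soft gels was 1 at 24 h, 0 in serum + LIF at 48 h, 2 in serum, 1 with PD03 and 2 with LIF and PD03, and 0 were higher. In serum + LIF at 48 h, 3 genes had an unadjusted p under 0.05 and 0 passed by DESeq2, and with PD03 2 passed by DESeq2. The median difference of the list was 0.02, -0.19, -0.01, -0.04 and -0.14 in the same order. With the identifier as a term, 0 to 1 passed in serum and 0 to 1 with PD03. The call at 24 h was lost without stiff library 1 or soft library 2. In serum no gene passed without stiff library 2, soft library 2 or soft library 3, and 1 passed without stiff library 1 or stiff library 3.

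**Figure D3:**
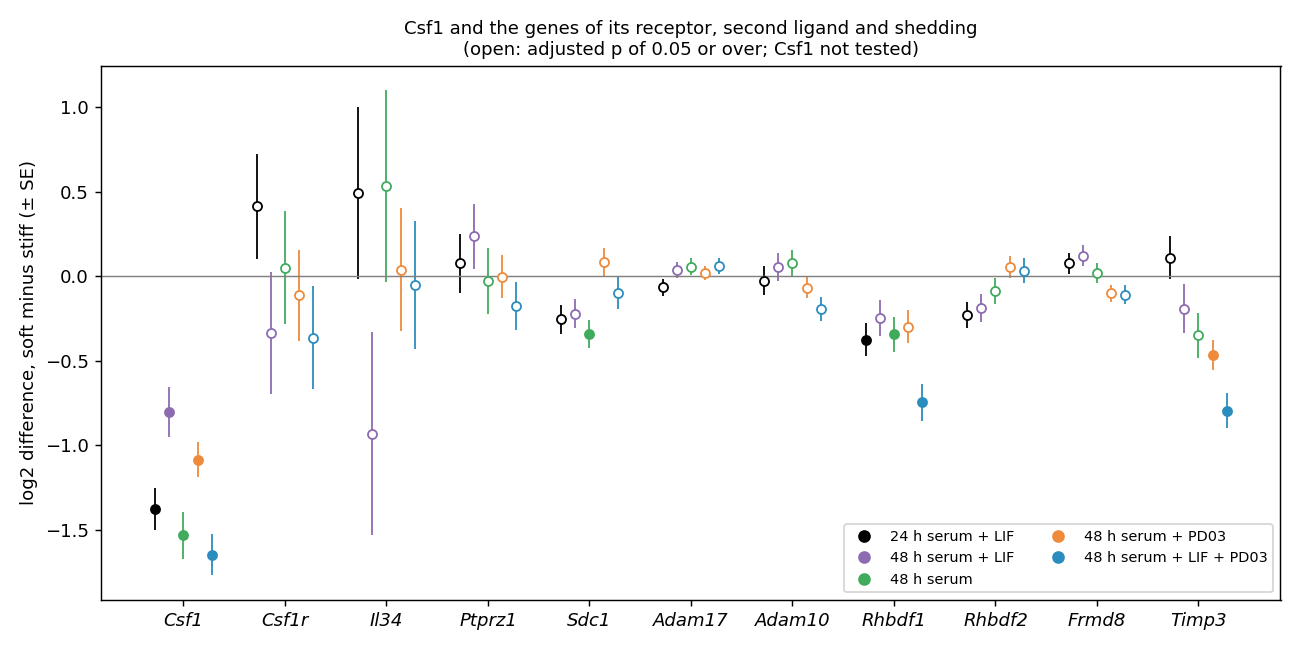
Log2 difference, soft minus stiff, with SE, of Csf1 (filled throughout, not tested) and the 10 genes of receptor, second ligand, binding and shedding in the 5 comparisons, which are marked by colour. Filled points of the other genes passed the test, and Rhbdf1 and Timp3 reach -0.75 and -0.80 while Csf1 runs from -0.80 to -1.65.

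With PD03, 27.8 to 29% of all genes rose and 26.6 to 28.5% fell. Of the same 10 genes, in serum 7 rose and 2 fell on each gel, in serum + LIF 7 rose and 2 fell on soft gels, and 6 rose and 1 fell on stiff gels, with list medians of 0.39, 0.49, 0.55 and 0.57. Timp3 had the largest rises among the genes with over 5 CPM, up to 2.09 ± 0.12 on stiff gels in serum + LIF. Adam10 rose by 0.70 to 1.04, whereas Rhbdf1 fell in 3 of the 4 settings, with values from -0.75 to -0.70. LIF changed 1 of the 10 genes in 1 of 4 settings, Rhbdf1 on stiff gels with PD03 (0.43 ± 0.11, adjusted p = 0.0447). This call was lost without any 1 of the 6 libraries other than library 1 of serum + PD03, and under scaling to total counts or to the upper quartile. In the other 3 settings 0 genes passed by edgeR or DESeq2, and 2, 1 and 2 had an unadjusted p under 0.05. Against plastic, 4 were lower on soft gels (Sdc1, Rhbdf1, Rhbdf2 and Timp3) and 1 on stiff gels (Timp3). Leaving out any 1 of the 6 libraries on plastic or on soft gels left 1 or 2 of the 4 calls, and with the identifier as a term 0 to 1 were left. The call on stiff gels was lost without any 1 of the 6 libraries other than plastic library 2, and with the identifier as a term. From 24 h to 48 h, 2 rose and 5 fell on soft gels and 1 rose and 4 fell on stiff gels, and Rhbdf1, Rhbdf2, Frmd8 and Timp3 fell on both. With the identifier as a term 0 to 2 of the 7 calls on soft gels and 2 to 4 of the 5 on stiff gels were left.

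Of 14 genes of CSF1R signalling, 0 passed the test at 24 h, in serum + LIF at 48 h and with PD03, 1 was higher and 1 lower in serum, and 2 were higher and 3 lower with LIF and PD03. The shares of all genes were 2.08% higher and 2.77% lower in serum, and 2.80% higher and 4.82% lower with LIF and PD03. The lipid phosphatase Inpp5d (SHIP1) was higher on soft gels in serum (0.22 ± 0.06) and with LIF and PD03 (0.19 ± 0.05), and the phospholipase Plcg2 was lower in serum (-0.28 ± 0.06). The adaptor Gab2 and the kinase Lyn were lower with LIF and PD03 (-0.55 ± 0.15 and -0.48 ± 0.14), where the adaptor Gab1 was also lower (-0.18 ± 0.05) and the adaptor Grb2 higher (0.15 ± 0.05). The list medians lay between -0.06 and 0.04. In the 3 comparisons with no call, 2, 2 and 5 of the 14 had an unadjusted p under 0.05, and DESeq2 called 0, 0 and 3.

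Among related growth factors and receptors, 10 of 14 genes were tested, and Kit was the one that passed in every comparison. Kit, the receptor for stem cell factor and a relative of Csf1r, was higher on soft gels in all 5, by 0.27 to 0.61 on the log2 scale, opposite in direction to Csf1. At 24 h it held 44.5 ± 2.82 CPM on stiff and 66.0 ± 5.66 CPM on soft gels. Its ligand Kitl was lower with LIF and PD03 (-0.49 ± 0.13) and the growth factor Pdgfb was lower with PD03 (-0.70 ± 0.17) and with LIF and PD03 (-0.82 ± 0.20). Csf2 and Csf3, which encode the other colony stimulating factors of this family name, had 4 and 19 counts in all libraries together and were not tested.

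Subunits of AP-1 and NF-kB, whose motifs were searched above, and the NF-kB inhibitor Nfkbia were a further list. Jun, a subunit of AP-1, was lower on soft gels in all 5 comparisons, with values from -0.74 to -0.41. Fosl2, another AP-1 subunit, was lower in 4 of 5, with values from -1.12 to -0.48, and had -0.39 ± 0.12 in serum + LIF at 48 h. The NF-kB subunit Nfkb2 was lower at 24 h (-0.37 ± 0.10) and with PD03 (-0.27 ± 0.08), and the AP-1 subunit Jund in both media with PD03 (-0.24 ± 0.06 and -0.22 ± 0.07). Of the 13 genes, 3, 1, 2, 4 and 3 were lower in the order of the comparisons above and 0 were higher, with list medians of -0.13, -0.06, -0.01, 0.08 and 0.04. Fosl2 and Jun rose with PD03 in all 4 settings and fell from 24 h to 48 h on both gels, in the directions given above for Csf1. Of all genes, 27.8 to 29% rose with PD03 and 11.4 to 13% fell with time. The list did not follow Csf1 as a whole. Over the 11 group means, Pearson's r with Csf1 ran from -0.26 (Nfkb1) to 0.94 (Fosl2).

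Targets of SRF and YAP, regulators that respond to actin and mechanical load, were lower on soft gels in larger number. Of 17 tested genes of 18, 14 were lower at 24 h, 6 in serum + LIF at 48 h, 12 in serum, 14 with PD03 and 14 with LIF and PD03, and 0 were higher. The list medians were -0.64, -0.29, -0.62, -0.57 and -0.65. Earlier results of these data had shown targets of this kind to be lower, so the list is not independent evidence of this direction. Acta2 (smooth muscle actin), Tagln (an actin-binding protein of smooth muscle), Thbs1 (a matrix glycoprotein) and Flnc (a filamin) were lower in all 5 comparisons, with mean differences of -1.25, -1.20, -1.18 and -1.09. Acta1 (skeletal muscle actin) was lower in 4 and Ankrd1 in 1, with mean differences of -1.01 and -1.06. Ankrd1 was barely detected, with a mean of 0.739 CPM and at most 43 counts in a library, and its differences ran from -1.55 to 0.17. LIF on stiff gels lowered 8 of the 17 in serum, with a median of -0.33 beside the -0.52 of Csf1. It raised 2 in the presence of PD03, with a median of 0.18 beside 0.27. Of all genes, LIF changed 1.41% and 0.514% in these settings, in either direction. On soft gels Csf1 had 0.21 and -0.30 with LIF. There the 18 genes summed to 777 to 900 CPM with LIF and 841 to 891 CPM without it in serum. In the presence of PD03 the sums were 1334 to 1395 CPM with LIF and 1340 to 1423 CPM without it. Calls of this list for LIF on soft gels are not given here.

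Markers of other cell types that the cultures could hold were examined next. In bulk RNA fewer cells of a type and less RNA per cell cannot be told apart. Of 8 trophectoderm markers, all tested and none at 0, the number lower on soft gels was 4 at 24 h, 1 in serum + LIF at 48 h, 4 in serum, 6 with PD03 and 5 with LIF and PD03. The keratin Krt18 was lower in all 5 comparisons (-1.04 to -0.55), and the keratin Krt7 and the transcription factors Hand1 and Gata3 in 4. Ascl2 was lower in 2 and Cdx2 in 1, while Eomes (-0.36 to 0.10) and the barely detected Elf5 did not pass in any. The summed level of the 8 markers, mostly Krt18, was 192 to 210 CPM on stiff and 116 to 129 CPM on soft gels at 24 h. At 48 h without PD03 it was 93.4 to 115 CPM on stiff and 61.2 to 83.2 CPM on soft gels. With PD03 it was 428 to 605 CPM on stiff and 283 to 338 CPM on soft gels. Not all of the 8 rose with PD03, since Eomes fell in all 4 settings (-1.68 to -1.43).

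Of 7 fibroblast markers, 6 were tested and none was at 0 in all libraries, and Lum had at most 5 counts in a library. Col1a1, a chain of type I collagen, was lower on soft gels in all 5 comparisons (-1.43 to -0.70) and its partner chain Col1a2 in 3. The number lower was thus 1 at 24 h, 1 in serum + LIF at 48 h and 2 in each of the other media, and 0 were higher. Col3a1, Dcn, Postn and Thy1 passed in 0 of the 5 comparisons. Thy1, a surface protein of fibroblasts, had values from -0.18 to 0.04. Against plastic, Thy1 was higher on soft (0.68 ± 0.15) and stiff gels (0.69 ± 0.15), where Col1a1 was lower (-2.10 ± 0.14 and -1.41 ± 0.13). The summed level, mostly Col1a1, was 50.5 to 57.7 CPM on stiff and 23.7 to 35.5 CPM on soft gels at 24 h, and 69.5 to 79.5 CPM on plastic. Both sums were thus lower on soft gels wherever Csf1 was, and their part in the Csf1 values was not tested.

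Most macrophage markers were at or near 0, and Cd68 was not. Of 11, 3 were tested, Tyrobp had 0 counts in all 36 libraries, Lyz2 had 2 counts in all and Adgre1 5. Cd68, which encodes a lysosomal protein, made up most of their summed level, at a mean of 15.1 CPM, and 0 of the 3 tested genes passed between soft and stiff gels by edgeR, by DESeq2 or at an unadjusted p under 0.05. At 24 h the summed level was 21.2 to 24.0 CPM on stiff and 21.6 to 23.5 CPM on soft gels.

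Of 7 primitive endoderm markers, 1 was lower on soft gels at 24 h and 1 in each PD03 medium, all 3 times Dab2, which encodes an endocytic adaptor, and 0 were higher. Between soft and stiff gels, the ES cell markers went the other way from Csf1. Of 8, the number higher on soft gels was 6 at 24 h, 0 in serum + LIF at 48 h, 6 in serum, 5 with PD03 and 4 with LIF and PD03, and 0 were lower. In serum + LIF at 48 h, 4 of the 8 had an unadjusted p under 0.05 and DESeq2 called 2.

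The genes around Csf1 were described next. Of 49 annotated genes in the table with a start within 500 kb of that of Csf1, 26 were tested. None passed between soft and stiff gels in 4 of the 5 comparisons, and 1 of 26 was lower with LIF and PD03. With 0.333 to 4.82% of all genes lower and 0.446 to 2.80% higher in these comparisons, counts of 0 and 1 of 26 are near the background and are no result about the neighbours. This was the nearest tested gene, Ahcyl1, 63.9 kb away, which encodes a regulator of IP3 receptors and had -0.19 ± 0.05 (adjusted p = 0.0236). At 24 h Ahcyl1 held 85.4 ± 3.43 CPM on stiff and 81.0 ± 1.69 CPM on soft gels (-0.08 ± 0.05). Gstm5, a glutathione transferase 135 kb away, and the antisense gene 4933431E20Rik, 136 kb away, had values of 0.48 ± 0.17 and 0.05 ± 0.26. These genes overlap each other on opposite strands and Gstm5 belongs to a cluster of similar genes, so their reads may not be told apart.

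In the 4 comparisons with no call, 4, 5, 4 and 5 of the 26 had an unadjusted p under 0.05, against the shares of all genes given above. DESeq2 called 1, 1, 0 and 0, with no adjusted p for 7, 12, 7 and 6 of the low genes. With PD03, 5 to 7 of the 26 were higher and 8 to 10 lower in the 4 settings, near the background of 27.8 to 29% higher and 26.6 to 28.5% lower. Ahcyl1 fell in all 4, with values from -0.53 to -0.33, where Csf1 was higher.

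**Figure D4:**
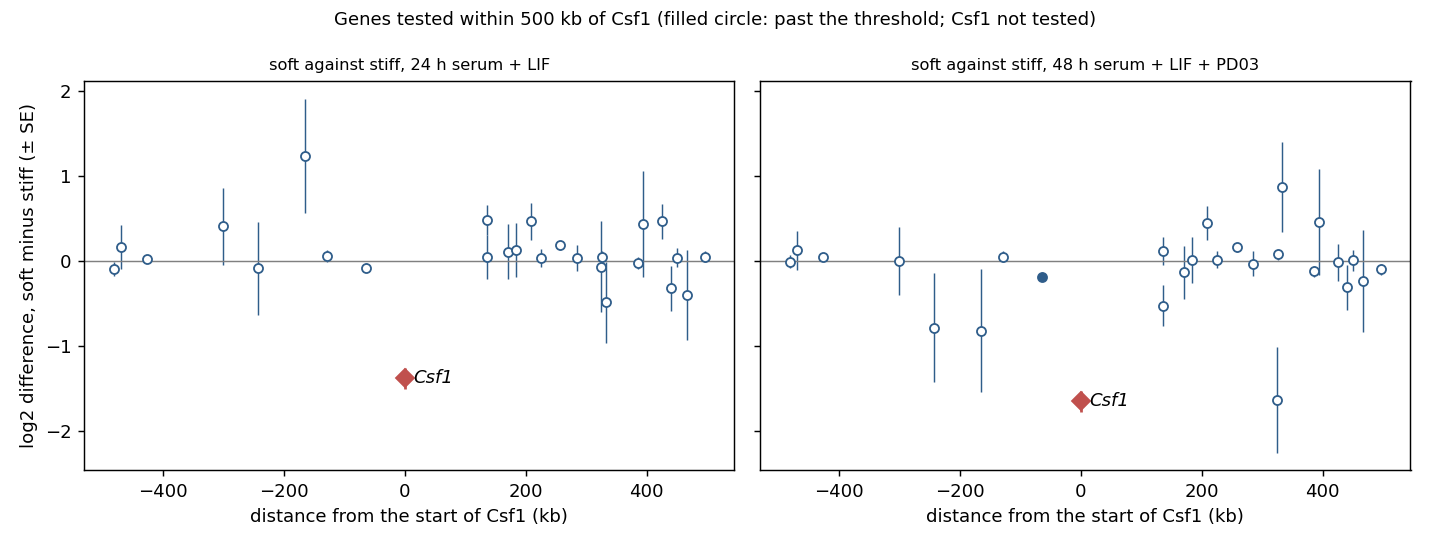
Log2 difference, soft minus stiff, with SE, against the distance in kb from the start of Csf1 for the 26 tested genes within 500 kb (circles, filled where the test was passed) and Csf1 (diamond, not tested), at 24 h in serum + LIF and at 48 h in serum + LIF + PD03. Csf1 lies at -1.38 and -1.65, and neighbours far from 0 have wide error bars.

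The genes whose level followed Csf1 most closely over the 11 group means of log2 CPM were, by Pearson's r among 10474 genes with a mean of at least 5 CPM, Slc25a24 (0.982), Egfr (0.981), Ccn4 (0.981), Prss23 (0.980), Zyx (0.971), Bmp8b (0.960), Anxa3 (0.958) and Tgfb2 (0.957). The 11 points share their libraries, substrates and media, the median r of all genes was -0.06 and the 99th percentile 0.82. Egfr, the receptor for epidermal growth factor, held 28.1 ± 2.51 CPM on stiff and 17.3 ± 2.05 CPM on soft gels at 24 h. At 48 h in serum + LIF it held 13.6 ± 2.53 on stiff, 9.84 ± 0.984 on soft gels and 27.6 ± 1.14 on plastic. Slc25a24, a mitochondrial carrier, is also on chromosome 3 but not within 500 kb of Csf1. Of the 8 genes, 4 were also among the first 8 by Spearman's rho.

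**Figure D5:**
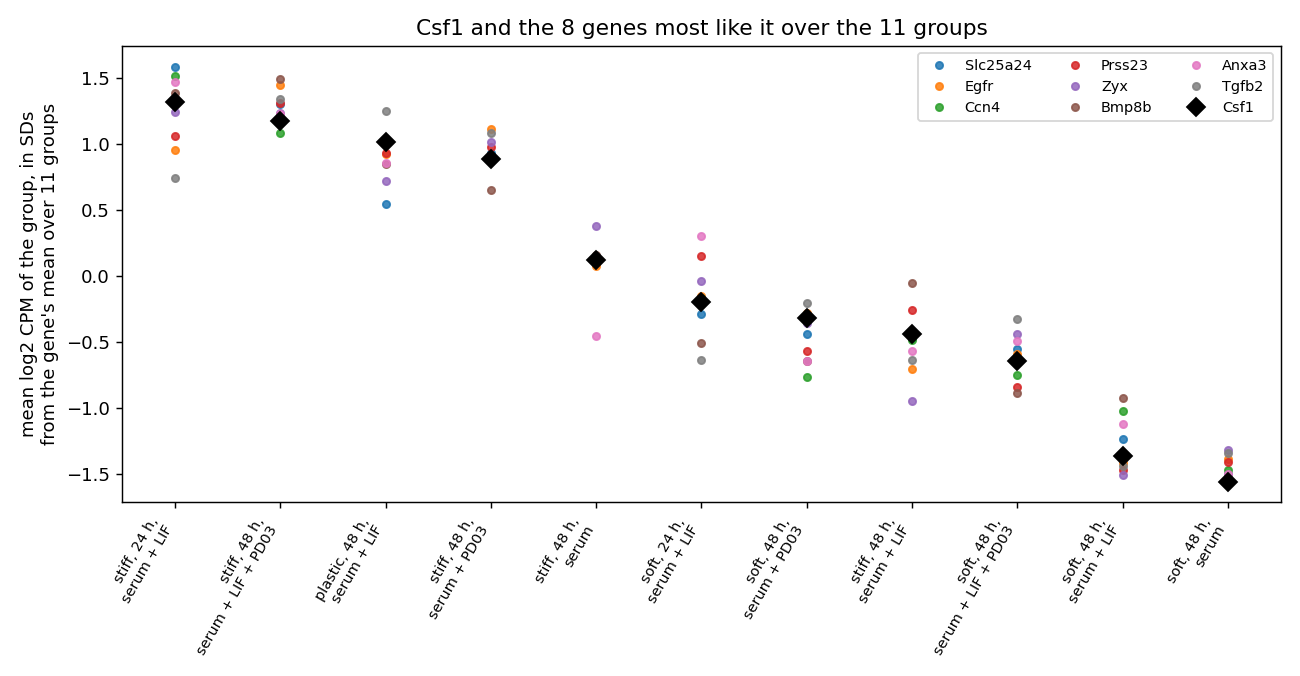
Mean log2 CPM of each group, in SDs from the gene's own mean over the 11 groups, for Csf1 (diamonds) and the 8 genes with the highest correlation to it (circles), with groups in the order of the Csf1 means. The 8 genes were chosen for this likeness, and all of them lie above 0 in the 4 groups at the left and below 0 in the 5 groups furthest to the right.

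A second measure used the 33 hydrogel libraries after the mean of each medium and time was subtracted, which leaves mainly the soft and stiff difference. The highest values of r were those of Tpm1 (0.972), Pmp22 (0.972), Thbs1 (0.972), Peg10 (0.970), Cryab (0.970), Phldb2 (0.968), Acta2 (0.966) and Col1a1 (0.964), against a median of -0.06 and a 99th percentile of 0.88. Tpm1, Thbs1 and Acta2 belong to the SRF and YAP list above. Tpm1, which encodes a tropomyosin that lines actin filaments, held 283 ± 12.9 CPM on stiff and 182 ± 6.13 CPM on soft gels at 24 h. No gene was among the first 8 by both measures, and 5 of these 8 were among the first 8 by Spearman's rho. Of the fixed lists, Fosl2 (0.92), Jun (0.91) and Rhbdf1 (0.85) had the highest values outside the SRF and YAP targets and the marker lists, and Kit (-0.86) one of the lowest.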

How the data were processed

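RNA-seq of 36 mouse ES cell libraries in 11 groups was analysed. Per the submitters' processing notes, reads were aligned to mm10 (GRCm38) with STAR 2.5.2a and counted per Ensembl gene with HTSeq. The strand setting is not given in the sources used here. The authors deposited raw counts per gene, without normalisation, and each column named a group but no replicate, so library numbers are only names. Symbols were found for 49326 of 49671 identifiers and coordinates were taken from GENCODE M21. Genes with low counts were removed with filterByExpr of edgeR 4.0.16, which left 17702 genes with 99.9% of all counts. Counts were scaled by TMM, with factors from 0.963 to 1.05, and tested by edgeR's quasi-likelihood test with 1 coefficient per group over all 36 libraries in R 4.3.3. P-values were adjusted by Benjamini and Hochberg's method across the genes tested, with a threshold of 0.05. The same code was tested on simulated data. Counts of replicate pairs differed by more than sampling noise in all 45 pairs, with a chi-square per gene of 2.27 to 14.6, so no library was counted as a duplicate.

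Csf1 and all lists were chosen with earlier results of these data known. Named were every gene of the receptor, second ligand and shedding list, and of the other lists up to 6 genes past the threshold in at least 1 soft against stiff comparison, largest mean change first. Of the tested genes within 500 kb, the nearest 4 were to be named, of which 1 is not reported here, and of the genes with a mean of at least 5 CPM the 8 most like Csf1 by each of 2 correlations of log2 CPM with a prior count of 2. Other genes are named where a count or a scale needed them, and were chosen after their values were seen. Alternatives were other scalings, no filter, DESeq2 1.42.0, fits of only the groups compared, a term for the identifier that heads each sample's description and leaving out each library.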

Additional observations from a re-analysis of the deposited data

Results flagged for a closer look

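In the group of 6 libraries (soft, 48 h, serum + PD03), Adam17 had 1 library whose gap to the nearest of the others, divided by the range of the group, was 0.712, above Dixon's 95% critical value for 6 samples. The libraries of this group lay between 74.4 and 82.2 CPM. This check was run on Csf1 and the 10 genes of its receptor, second ligand, binding and shedding in the only group with 4 or more libraries, and chance marks about 1 in 20 such groups. None of the 10 genes passed a test of whether its soft and stiff difference changed with LIF, PD03 or time (50 tests, edgeR's quasi-likelihood test adjusted over all genes), and 7 of the 50 had an unadjusted p under 0.05. Over all 17702 genes the 5 interaction tests called 15, 1, 141, 189 and 45 genes, for LIF without and with PD03, PD03 without and with LIF, and time. At an unadjusted p under 0.05 by the same test, 1719, 830, 2024, 1689 and 1853 of the 17702 passed in this order. Nothing is read from the 7 of 50 beside this background.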

How the results depend on the processing

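No paired analysis was possible because the columns of the count table carry no replicate number. The 17 log2 differences of Csf1 kept direction under other scalings, no filter, DESeq2, fits of only the groups compared and each library left out. They also moved by less than the spread between libraries. For a library left out this could hardly be otherwise, since 1 library of a small group shifts its mean by less than that spread. The size of those moves is therefore no test. With the sample identifier as a term, the lowest and highest values over 45 assignments moved by more than that spread for soft against stiff at 48 h in serum + LIF (-1.14 and -0.48), serum (-1.84 and -1.25), serum + PD03 (-1.30 and -0.89) and serum + LIF + PD03 (-1.96 and -1.37), for soft against plastic (-2.52 and -1.73) and for 48 h against 24 h on soft gels (-1.42 and -0.63). The cause of changes under other settings was not tested.

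With each library left out in turn, the largest moves of Csf1 came without library 3 of soft gels in serum + LIF at 48 h, with -0.58 for soft against stiff, -1.90 for soft against plastic, -0.80 for time on soft gels, 0.42 for LIF in serum on soft gels and 0.40 for PD03 with LIF on soft gels.

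Of the 10 genes of receptor, second ligand, binding and shedding, scaling to total counts left 1 call in place of 2 in serum, 2 in place of 1 with PD03, 2 in place of 4 for soft against plastic, 0 in place of 1 for stiff against plastic and 0 in place of 1 for LIF with PD03 on stiff gels. Upper-quartile scaling also gave 0 for the last, no filter gave 2 for soft against plastic, and DESeq2 gave 2 with PD03. With the identifier term the lowest and highest counts were 0 and 1 in serum, 0 and 1 with PD03, 0 and 1 for soft against plastic, 0 and 0 for stiff against plastic, 0 and 1 for LIF with PD03 on stiff gels, 0 and 2 in place of 7 for time on soft gels and 2 and 4 in place of 5 on stiff gels. With each library left out in turn the counts ran from 0 to 1 for soft against stiff at 24 h, 0 to 2 in serum, 1 to 2 with PD03, 1 to 2 for soft against plastic, 0 to 1 for stiff against plastic and 0 to 1 for LIF with PD03 on stiff gels.

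Over all genes, no filter gave 266 calls in place of 138 for soft against stiff at 48 h in serum + LIF. For LIF it gave 46 in place of 3 on soft and 381 in place of 249 on stiff gels in serum, and 73 in place of 19 on soft and 141 in place of 91 on stiff gels with PD03. DESeq2 gave 242, 36, 386, 42 and 154 in the same order. Total counts gave 0 for LIF on soft gels in serum, and fits of only the groups compared gave 81 in place of 138 and 417 in place of 91. With the identifier term calls numbered 0 to 41 at 48 h in serum + LIF, 173 to 384 in place of 858 in serum, at least 276 in place of 982 with PD03 and 246 to 724 in place of 1348 with LIF and PD03. They numbered 126 to 445 in place of 2083 for soft and 225 to 431 in place of 981 for stiff against plastic, 345 to 813 in place of 4315 for time on soft and 2219 to 2431 in place of 4535 on stiff gels, and at least 109 and 7 in place of 249 and 19 for LIF on stiff gels in serum and on soft gels with PD03. With each library left out in turn, soft against stiff gave 416 to 522 calls in place of 628 at 24 h, 27 to 235 in place of 138 in serum + LIF at 48 h, 546 to 686 in serum and 520 to 954 with PD03. Stiff against plastic gave 637 to 764, and LIF gave 0 to 16 on soft and 118 to 231 on stiff gels in serum, and 3 to 22 on soft and 24 to 82 on stiff gels with PD03. The counts of the other lists were not recomputed with the identifier term. Between 66 and 755 counts of Csf1 per library limit its precision most in soft gels at 48 h without PD03.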
